A study of Caenorhabditis elegans with 32 samples.

Results

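The effect of nicotinamide riboside (NR) on gene expression was measured in csa-1(tm4539) worms, a Caenorhabditis elegans strain that carries a mutation in csa-1, the worm counterpart of the Cockayne syndrome gene CSA. The comparison held 8 of the 32 arrays of the series, 4 from csa-1 worms given 500 µM NR from the late L4 stage and 4 from csa-1 worms given water as vehicle, all collected at adult day 7 and kept at 25 °C. The other 24 arrays came from N2 (wild type), csb-1(ok2335) and the double mutant of both genes, each with and without NR, with 4 arrays a group, and were used for the spread between replicates and for the NR effect in other strains. Each array was a single-colour whole-genome microarray of RNA from whole worms, so a lower level can come from fewer cells of a type or from less RNA per cell, and these cannot be told apart. The growth methods name FUDR, which stops egg-laying, for the worms in general. Each group sat on a slide of its own, so slide and group cannot be told apart. Nothing in the labels says how the 4 samples of a group were raised, and the p-values measure only the spread between these samples, which may be technical.

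NR is a form of vitamin B3 that cells phosphorylate and convert to NAD, the electron carrier of energy metabolism and the substrate that sirtuins and poly(ADP-ribose) polymerases consume. CSA and CSB act in transcription-coupled nucleotide excision repair, the branch of DNA repair that serves stalled RNA polymerase, and their loss in humans causes Cockayne syndrome. In an adult worm the largest tissues are the intestine, which makes yolk, digestive enzymes and antibacterial proteins, the hypodermis, which secretes the collagens of the cuticle, the body wall muscle and the germline. The comparison asked which genes NR raised or lowered in worms that lack csa-1 function.

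Levels are given below as log2 values relative to the mean gene probe of the same array, so that 0 is the array's mean and a difference of 1 is a doubling. A gene was counted as called when its adjusted p in limma was at most 0.05, its change was at least 1.5 SD of the changes of all genes (SD 0.549) and its mean level was above 0. Well above background in all 8 csa-1 arrays were 7 of 7 intestine markers on the array, 7 of 7 body wall muscle markers, 7 of 8 neuron markers, 6 of 6 germline markers, 9 of 9 oocyte and eggshell markers, 7 of 8 early embryo markers, 4 of 7 hypodermis and adult cuticle markers, 5 of 7 pharynx markers, 6 of 8 sperm markers and 4 of 6 larval cuticle markers. Over the 8 csa-1 arrays 65.5% to 78.1% of the spots were well above background, and over all 32 arrays 46.9% to 78.4%.

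The library labelled csa-1 NR replicate 4 went against its label. Of the 7 csb-1 probes on the array only A_12_P159795 was low wherever the labels give csb-1(ok2335). It stood at 0.01, -0.19 and -0.06 on NR replicates 1 to 3 and at -4.56 on replicate 4, where it was not well above background. The levels were -0.04, -0.51, -0.31 and 0.03 on the 4 vehicle arrays and -5.24 to -2.07 on the 16 arrays labelled with csb-1(ok2335). Replicate 4 therefore lay with the arrays that carry the csb-1 mutation. Its csa-1 probe, A_12_P118898, was at 0.79, against -1.23, -0.96 and -1.08 on the other 3 NR arrays, -2.34 to -0.04 on the vehicle arrays and 0.35 to 0.73 on the 4 csb-1 NR arrays. Neither probe passed the test between NR and vehicle over the 8 arrays (A_12_P159795 by -0.99, p = 0.771, and A_12_P118898 by 0.44, p = 0.514, exact permutation test, two-sided, for which 4 against 4 arrays allow no p below 0.0286), nor did they without replicate 4 (0.13, p = 0.486, and -0.03, p = 1, by the same exact test).

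A set of 25 genes parted the 16 csb-1(ok2335) arrays from the 12 arrays of N2 and csa-1 vehicle with no overlap, 17 of them higher and 8 lower with the mutation. Replicate 4 lay within the range of the csb-1(ok2335) arrays at 17 of the 25 genes and beyond it, further from N2 and csa-1 vehicle, at 7. Replicates 1, 2 and 3 lay within that range at 5, 5 and 7 genes and beyond it at none. The gene with the widest gap, Y68A4A.13, was at 5.46, 5.39 and 5.69 on NR replicates 1 to 3 and at -2.25 on replicate 4. F22B8.2 went the other way, from -4.02, -5.26 and -4.47 to 2.81. Over 11747 genes that were well above background on all arrays, the SD of the difference between replicate 4 and the csb-1 NR mean was 0.315, and between replicate 4 and the other csa-1 NR arrays 0.430. By this measure replicate 1 was also nearer to another group, N2 NR (0.320 against 0.420 to the other csa-1 NR arrays), and replicate 3 to the double mutant vehicle (0.454 against 0.466), so the distance is not particular to replicate 4. Of the 25 genes 8 were counted as called with the 4 NR arrays, scl-24, scl-25, clec-60, spp-9, spp-21, H02F09.3, R07C12.1 and scrm-4. The results below are therefore given with and without this library, and its origin was not tested.

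**Figure D1:**
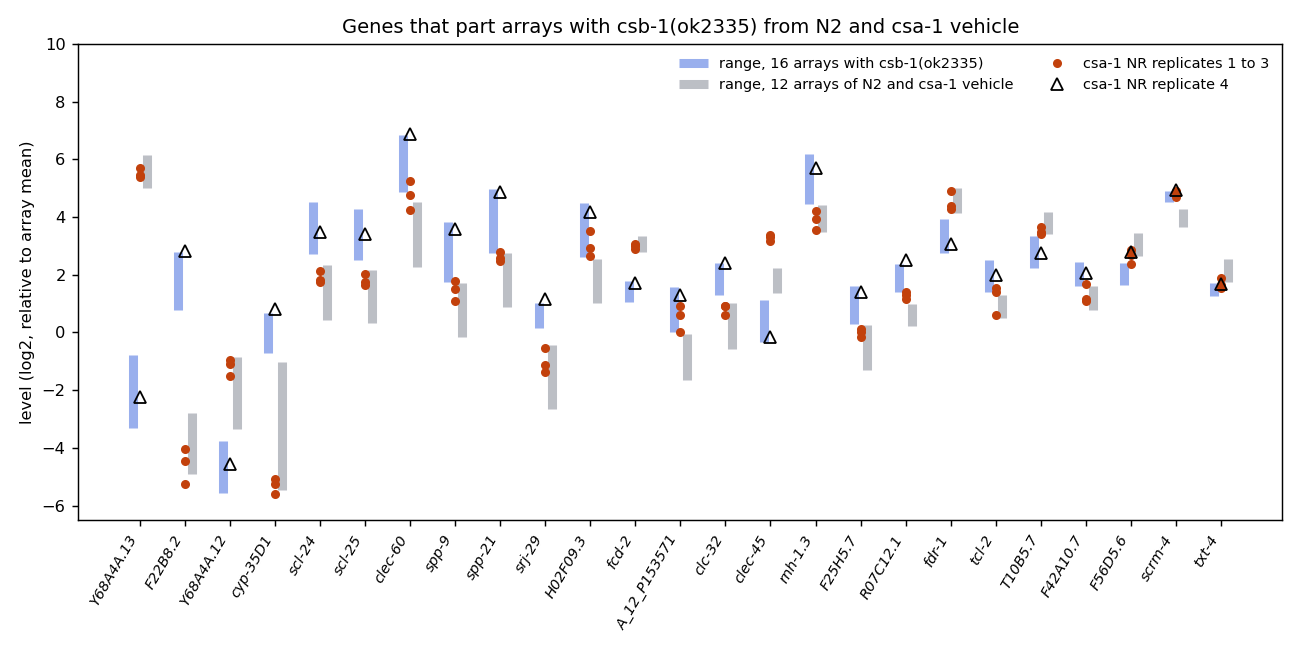
Levels (log2, relative to the array mean) of the 25 genes that part the arrays with csb-1(ok2335) from those of N2 and csa-1 vehicle. Bars give the range of the 16 and 12 arrays, dots csa-1 NR replicates 1 to 3, and open triangles the library labelled csa-1 NR replicate 4, which lies within the csb-1(ok2335) range at 17 genes and beyond it, away from the other arrays, at 7.

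An array of another group also stood apart and touches the comparison with wild type. The library labelled N2 vehicle replicate 3 differed from the csa-1 vehicle mean with an SD of 0.283 over the same 11747 genes, and from the other 3 N2 vehicle arrays with an SD of 0.712. N2 vehicle replicate 4 was also nearer to another group, the double mutant vehicle (0.354 against 0.471 to its own group), and replicate 1 to csb-1 vehicle (0.621 against 0.645). The only csa-1 probe was at -1.64 on N2 vehicle replicate 3, the lowest of the N2 arrays. It was at -0.75, -0.43 and -0.01 on N2 vehicle replicates 1, 2 and 4 and at -0.27 to -0.05 on the N2 NR arrays. On the csa-1 vehicle arrays it ranged from -2.34 to -0.04. The N2 and csa-1 vehicle arrays thus overlapped, and the probe could not settle the label of N2 vehicle replicate 3. The csa-1 effect itself does not use this array, except for the shared estimate of spread.

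With all 4 NR arrays, 556 of 25497 genes (2.18%) were called, 392 higher (1.54%) and 164 lower (0.643%) under NR. Without NR replicate 4 the call held for 396 genes (1.55%), 289 higher (1.13%) and 107 lower (0.42%), and 354 genes were called both ways, 256 higher and 98 lower. No gene was called with opposite signs. The counts depended on the spread used and on the background correction, with 55 higher and 5 lower in a fit of the 8 csa-1 arrays alone and 129 and 45 after normexp correction. The change of the median gene was 0.02 with replicate 4 and -0.00 without it. In N2 the same test called 124 genes higher (0.486%) and 91 lower (0.357%), in csb-1 248 (0.973%) and 125 (0.49%), and in the double mutant 221 (0.867%) and 355 (1.39%).

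Among called genes whose groups did not overlap, those that fell furthest were invertebrate-type lysozymes, enzymes that cleave bacterial cell walls. The level of ilys-2 was 3.30, 3.20, 2.98 and 3.15 on the vehicle arrays and 0.20, 0.57, 0.65 and -1.06 on the NR arrays. The lowest vehicle array stood more than 2 log2 units above the highest NR array, and replicate 4 was the lowest. The change was -3.07 (SE 0.29), or 8.39-fold lower (adjusted p = 3.3e-07), and -2.69 without replicate 4 (adjusted p = 5.3e-07). The level of ilys-5 was 6.02, 6.21, 5.88 and 5.77 under vehicle and 3.21, 3.85, 3.65 and 2.03 under NR. Its change was -2.79 (adjusted p = 2.4e-07), and -2.40 without replicate 4 (adjusted p = 3.1e-08). For ilys-3 the vehicle arrays split, with 4.52 and 4.78 on replicates 1 and 2 and 1.97 and 1.55 on replicates 3 and 4, while NR gave 0.75, 0.82, 0.75 and -1.02. The groups did not overlap, and the change was -2.88 (adjusted p = 0.0037), or -2.43 without replicate 4 (adjusted p = 0.027). Of 16 lysozyme genes 3 fell and none rose, with or without replicate 4, where 0.643% and 0.42% of all genes were called lower. None of the 10 lys- genes, the other worm lysozyme family, was among the 3 that fell.

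The fall of ilys-2 and ilys-5 was shared by the other strains. NR changed ilys-2 by -2.05 in N2, -2.39 in csb-1 and -2.13 in the double mutant, and ilys-5 by -2.45, -2.61 and -2.24, and both genes were called in each strain. The difference of the csa-1 effect from that in N2 was -1.02 for ilys-2 (adjusted p = 0.52) and -0.33 for ilys-5 (adjusted p = 0.76), within the spread.

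**Figure D2:**
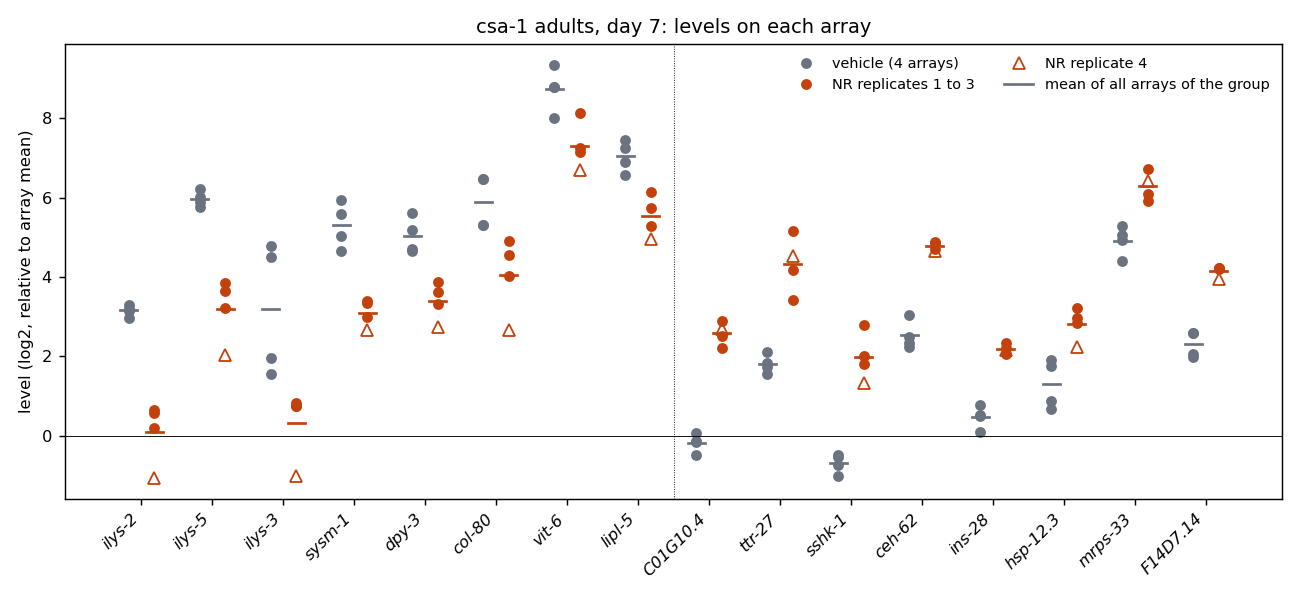
Levels (log2, relative to the array mean) of 16 of the named genes on the 8 csa-1 arrays, with genes that fell under NR at the left of the dotted line and genes that rose at the right. Grey dots are the 4 vehicle arrays, orange dots NR replicates 1 to 3, open triangles the library labelled NR replicate 4, and bars the group means. ilys-2 falls from about 3 to between -1.06 and 0.65, and C01G10.4 rises from about 0 to between 2.22 and 2.88.

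Other genes that fell included sysm-1, C14C6.5 and K10C2.8. The level of C14C6.5 was 6.93, 7.69, 7.04 and 7.40 under vehicle and 5.09, 5.42, 5.40 and 4.80 under NR, a change of -2.09 (adjusted p = 1.4e-06), or -1.96 without replicate 4 (adjusted p = 1.4e-05). sysm-1 fell by 2.20 (adjusted p = 0.00085), or by 2.06 without replicate 4 (adjusted p = 0.0051), and K10C2.8 by 2.28 (adjusted p = 0.00018), or by 2.31 (adjusted p = 0.00087). All 3 genes were lower on each NR array than on every vehicle array. sysm-1 was also called lower in N2 (-2.81), csb-1 (-3.72) and the double mutant (-2.70).

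A few of the leading genes rested in part on replicate 4. The C-type lectin gene clec-13, of a family of secreted sugar-binding proteins, was at 0.27, 0.57 and 0.18 on NR replicates 1 to 3 and at -3.42 on replicate 4, against 1.24 to 2.04 under vehicle. Its change was -2.31 with replicate 4 (adjusted p = 0.005) and -1.37 without it (adjusted p = 0.0011). The change of dhs-26, a short-chain dehydrogenase gene, was -2.03 (adjusted p = 0.012) and lost its call without replicate 4 (-1.46, adjusted p = 0.07). The reverse held for hmg-6, where replicate 4 stood at 1.45 among vehicle arrays at 1.19 to 1.61 and the other NR arrays stood at -0.48, 0.03 and -0.32. Its change was -1.22 with replicate 4 and -1.65 without it (adjusted p = 2.8e-05).

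Genes of the cuticle collagens, the structural proteins of the worm's exoskeleton, were lower under NR as a group. Of 177 collagen genes 39 fell and none rose with all NR arrays, where 0.643% of all genes were called lower. Without replicate 4, 27 fell and none rose, where 0.42% of all genes were called lower. The median change was -0.71, or -0.58 without replicate 4, against 0.02 and -0.00 over all genes, and 57 of the 177 genes were lower on each NR array than on every vehicle array, where 3.8% of all genes were. In the fit of the csa-1 arrays alone no collagen was called, and 11 were after normexp correction. Without replicate 4 the lack of overlap held for 61 genes, against 5.58% of all genes. The mean collagen level was 0.57, 0.63, 0.77 and 0.75 on the vehicle arrays and 0.06, 0.12, 0.36 and -0.36 on the NR arrays, so the groups did not overlap. The furrow collagen gene dpy-3, which is needed for normal body shape, was at 4.70, 4.66, 5.18 and 5.61 under vehicle and at 3.33, 3.61, 3.86 and 2.74 under NR. Every NR array was below every vehicle array. The change was -1.65 (SE 0.23, adjusted p = 0.00013), and -1.44 without replicate 4 (adjusted p = 0.00091). A second furrow collagen gene, dpy-10, fell by 0.85 (adjusted p = 0.00088), or by 0.89 without replicate 4 (adjusted p = 0.0023).

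Among the col- genes, col-159 changed by -1.98 (adjusted p = 0.0067), col-80 by -1.85 (adjusted p = 0.0019) and col-39 by -1.80 (adjusted p = 0.00059). The level of col-80 was 5.31, 5.31, 6.47 and 6.46 under vehicle and 4.03, 4.57, 4.92 and 2.65 under NR. Vehicle replicates 3 and 4 stood above replicates 1 and 2 at these 3 genes, and NR replicate 4 was the lowest. The change of col-80 was -1.38 without replicate 4 (adjusted p = 0.0093). NR called 28 collagen genes lower in N2, 24 in csb-1 and 15 in the double mutant, where 0.357%, 0.49% and 1.39% of all genes were called lower. None was called higher in any of the 3. The median collagen change was -0.25, -0.21 and -0.49 there. A difference of the csa-1 effect from that in N2 was not found at dpy-3 (-0.16, adjusted p = 0.88) or col-80 (0.44, adjusted p = 0.77).

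**Figure D3:**
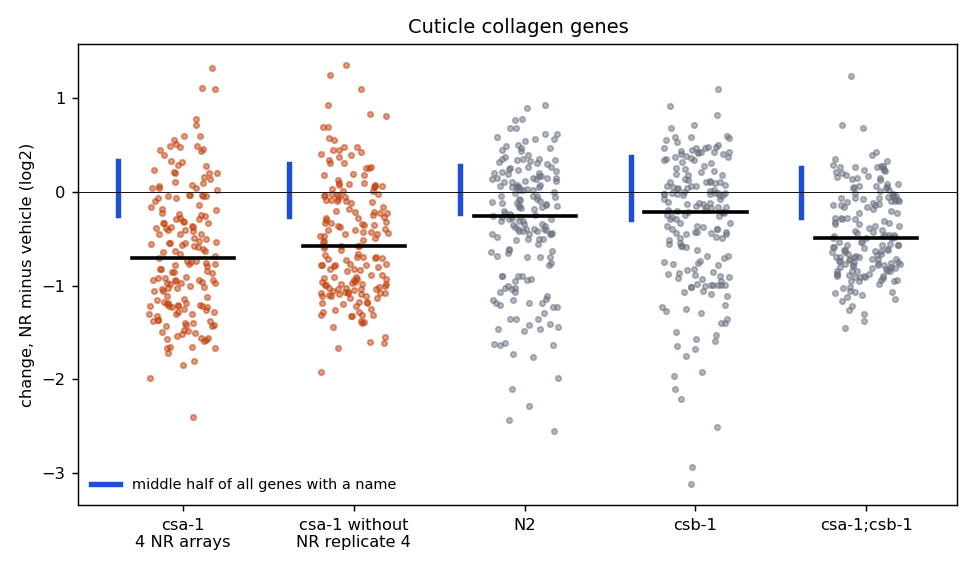
Change under NR (log2, NR minus vehicle) of 177 cuticle collagen genes in csa-1 with 4 NR arrays, in csa-1 without NR replicate 4, and in N2, csb-1 and the double mutant. Each dot is a gene, black bars are the medians (-0.71, -0.58, -0.25, -0.21 and -0.49) and blue bars the middle of the distribution of all named genes, from the lower to the upper quartile.

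The markers of the cuticle and its tissue were lower under NR, and those of the other tissues overlapped between the groups of 4 arrays. Nearly all of these cuticle markers are collagen genes, so their fall largely repeats that of the collagens and is not a separate result. The summed level of the 7 hypodermis and adult cuticle markers, given as their mean, ranged from 0.68 to 0.86 under vehicle and from -0.44 to 0.30 under NR, or -0.03 to 0.30 without replicate 4. That of the 6 larval cuticle markers ranged from 0.79 to 1.13 and from -0.22 to 0.70, with col-17 below background on all 8 arrays, and that of the 8 early embryo markers from 0.47 to 1.11 and from 0.57 to 1.19. The 7 body wall muscle markers had a mean level of 3.69 to 4.65 under vehicle and 2.76 to 3.76 under NR, or 3.55 to 3.76 without replicate 4. The mean level was 5.67 to 6.55 and 5.56 to 6.20 for 7 intestine markers, 0.03 to 0.93 and -0.09 to 0.61 for 7 pharynx markers, 5.41 to 5.68 and 4.96 to 5.46 (4.96 to 5.35, with no overlap, without replicate 4) for 6 germline markers, and 7.63 to 8.27 and 7.18 to 8.10 for 9 oocyte and eggshell markers. The part of tissue makeup in the results was not tested.

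Muscle genes fell in part through replicate 4. Of 34 sarcomere genes 3 fell and 1 rose, and without replicate 4 none fell and 1 rose, with a median change of -0.56 and -0.41. Over all genes 0.643% were called lower and 1.54% higher, or 0.42% and 1.13% without replicate 4. The myosin heavy chain gene unc-54 was at 3.41, 2.70, 3.97 and 4.25 under vehicle and at 2.49, 2.67, 2.63 and 1.19 under NR. The NR arrays lay below every vehicle array, replicates 1 to 3 only narrowly. The change was -1.34 (adjusted p = 0.0099), and -0.99 without replicate 4 (adjusted p = 0.058). The genes of paramyosin, unc-15, and troponin T, tnt-2, had changes of -1.12 and -1.09 and likewise lost their calls without replicate 4 (adjusted p = 0.12 and 0.11). The gene that rose was tnc-2, of troponin C (0.87, adjusted p = 0.029, or 0.93 without replicate 4, adjusted p = 0.049).

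Single genes of yolk, lysosomal lipid breakdown and fatty acid metabolism were among those that fell. The yolk protein gene vit-6 was at 8.01, 8.78, 8.80 and 9.35 under vehicle and at 7.15, 7.24, 8.14 and 6.70 under NR. The highest NR array lay above the lowest vehicle array. Its change was -1.43 (adjusted p = 0.0022), and -1.22 without replicate 4 (adjusted p = 0.015). It was the only called member of the 5 vitellogenins measured, all of which had lower values under NR (median -1.02). The lysosomal lipase gene lipl-5 was at 6.57, 6.89, 7.24 and 7.45 under vehicle and at 5.30, 5.74, 6.14 and 4.96 under NR. These groups did not overlap, and the change was -1.51 (adjusted p = 0.00013), or -1.31 without replicate 4 (adjusted p = 0.00091). Where 0.643% of all genes were called lower and 1.54% higher, 6 of 87 lysosomal protease, lipase and V-ATPase genes fell and 2 rose. Without replicate 4 these were 4 and 2, against 0.42% and 1.13% of all genes. The 2 that rose, both among the 25 genes that part the csb-1(ok2335) arrays, were spp-21 and spp-9, genes of saposin-like proteins, at 4.87 and 3.58 on replicate 4 against 2.48 to 2.78 and 1.07 to 1.79 on the other NR arrays. Their changes were 1.85 and 1.75 with that library and 1.29 and 1.22 without it (adjusted p = 0.0018 and 0.0024). The hydroxyacyl-CoA dehydrogenase gene hacd-1, of fatty acid β-oxidation, fell by 1.16 (adjusted p = 0.00022), or by 1.08 without replicate 4, and the fatty acid synthase gene fasn-1 fell by 0.88 (adjusted p = 0.015), or by 0.85 (adjusted p = 0.047). These were the only called members of the 51 genes of fatty acid oxidation and of the 19 of desaturases, elongases and synthase, where 0.643% of all genes were called lower, and the median change of the 51 was -0.02.

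The genes that rose furthest included several that the gene table knows by a sequence name only. C01G10.4 was at -0.13, -0.48, 0.07 and -0.17 under vehicle and at 2.52, 2.22, 2.88 and 2.70 under NR. All NR arrays were more than 2 log2 units above all vehicle arrays, and replicate 4 lay among the others. The change was 2.76 (SE 0.37), or 6.76-fold higher (adjusted p = 9.8e-05), and 2.72 without replicate 4 (adjusted p = 0.00057). C01G10.17 was at -0.36, -0.39, -0.12 and -0.08 under vehicle and at 2.29, 1.98, 2.06 and 2.28 under NR, a change of 2.38 (adjusted p = 0.00049). The change of sshk-1 was 2.67 (adjusted p = 0.00073), or 2.89 without replicate 4 (adjusted p = 0.0013), and that of nspa-5 2.09 (adjusted p = 0.00059), or 1.98 (adjusted p = 0.0036). The homeobox gene ceh-62 was at 2.33, 2.24, 3.05 and 2.49 under vehicle and at 4.72, 4.87, 4.87 and 4.66 under NR, a change of 2.25 (adjusted p = 0.0028), or 2.29 without replicate 4 (adjusted p = 0.0085). Further genes in this group were C23G10.11 (2.12), Y73B6A.3 (1.98), K02E11.6 (1.97) and W10C8.6 (1.90), and, from the order without replicate 4, T05G5.4 (1.90), spig-5 (1.88) and F14D7.14 (1.84). All of these kept their calls without replicate 4.

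The vehicle level of most of these genes in csa-1 was low beside the other groups. W10C8.6 averaged 2.09 in csa-1 vehicle and 2.08 in the double mutant NR. C23G10.11 averaged 2.19 in csa-1 vehicle, and also went from 2.95 to 4.61 under NR in N2 and from 2.56 to 3.90 in the double mutant. C01G10.4 averaged -0.18 ± 0.23 (SD, n = 4) in csa-1 vehicle and 2.58 ± 0.28 in csa-1 NR, against 1.92 ± 0.08 in N2 NR, 2.24 ± 0.23 in csb-1 vehicle, 2.42 ± 0.34 in csb-1 NR, 2.47 ± 0.14 in the double mutant vehicle and 1.94 ± 0.13 in the double mutant NR. In N2 vehicle it was 2.51, 2.78, -0.18 and 2.68. Only replicate 3 of N2 vehicle, the library nearest to csa-1 vehicle, was as low as csa-1 vehicle. The same was seen at ttr-27, where N2 vehicle was 1.68 on replicate 3 and 4.20 to 5.23 on the others, and at ceh-62, where it was 5.27, 5.45, 2.01 and 4.89. The mean of csa-1 vehicle was the lowest of the 8 group means for 321 of the 392 genes called higher (81.9%) and the highest for 100 of the 164 called lower (61.0%), where it was the lowest for 19.8% and the highest for 17.2% of all genes. The calls used these arrays, so the counts only describe the called genes. Over the named genes called higher, the median level was 1.56 to 1.83 on the csa-1 vehicle arrays, 2.83 to 3.06 on the csa-1 NR arrays and 1.62 on N2 vehicle replicate 3, and 2.34 to 3.02 on the other 23 arrays.

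**Figure D4:**
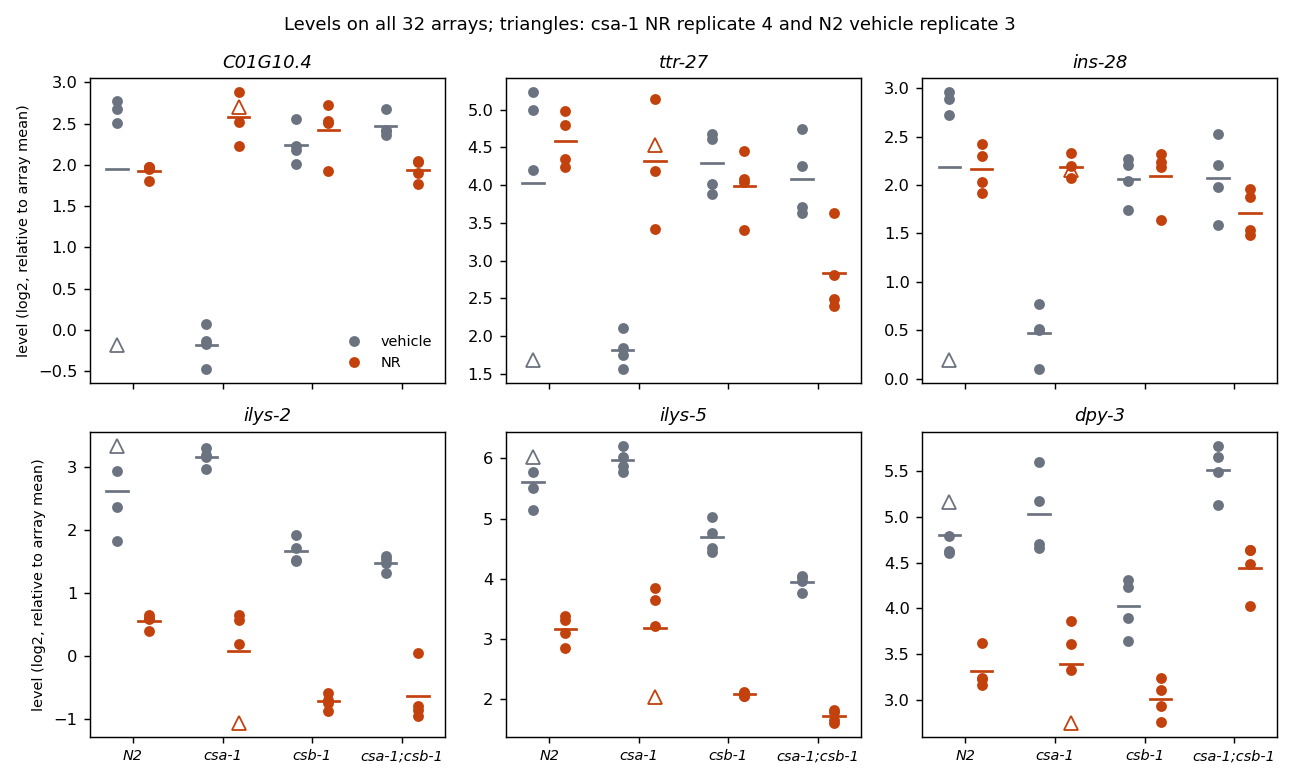
Levels (log2, relative to the array mean) of 6 named genes on all 32 arrays by strain, vehicle in grey and NR in orange, with bars for group means and open triangles for the libraries labelled csa-1 NR replicate 4 and N2 vehicle replicate 3. C01G10.4, ttr-27 and ins-28 are low on the csa-1 vehicle arrays and N2 vehicle replicate 3, and ilys-2, ilys-5 and dpy-3 are lower under NR in all 4 strains.

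Some genes of secreted signalling peptides rose under NR. Of 136 neuropeptide and insulin-like peptide genes 17 rose and 1 fell, where 1.54% of all genes were called higher and 0.643% lower. Without replicate 4, 10 rose and 1 fell, where 1.13% and 0.42% of all genes did. The median change was 0.36 both ways, and 42 of the 136 genes were higher on each NR array than on every vehicle array, where 6.11% of all genes were. In the fit of the csa-1 arrays alone 1 was called higher, and 2 were after normexp correction. Without replicate 4 the lack of overlap held for 45 genes, against 7.13% of all genes. The called genes were 7 of the 40 insulin-like genes, 4 of the 29 FMRFamide-like flp- genes, 5 of the 63 nlp- genes and 1 other. The insulin-like gene ins-28 was at 0.10, 0.51, 0.50 and 0.77 under vehicle and at 2.07, 2.20, 2.33 and 2.16 under NR. The NR arrays lay close together and far above the vehicle arrays, and the change was 1.72 (adjusted p = 0.0055), or 1.73 without replicate 4 (adjusted p = 0.017). ins-7 rose by 1.75 (adjusted p = 0.0093) with its highest value, 6.94, on replicate 4, and its call was lost without that library (1.38, adjusted p = 0.056). The gene that fell was nlp-99 (-1.08, adjusted p = 0.0042). No member was called higher under NR in N2, csb-1 or the double mutant, where 0.486%, 0.973% and 0.867% of all genes were. Called lower there were 1, 2 and 4 members, against 0.357%, 0.49% and 1.39% of all genes. The median change of the members was 0.06, 0.21 and -0.12 in these strains. By the interaction contrast none of the 136 differed between csa-1 and N2, 2 differed from csb-1 and 22 from the double mutant. Over all genes these shares were 0.0392%, 0.286% and 3.28%. Without N2 vehicle replicate 3, left out for its nearness to csa-1 vehicle, 11 were more positive than in N2 and 1 more negative. The 8 general neuron markers had a mean level of 2.22 to 2.45 under vehicle and 2.02 to 2.33 under NR.

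Transthyretin-related genes, a large nematode family of small secreted proteins, gave 7 higher and 1 lower of 58, and 7 and none without replicate 4. Over all genes 1.54% were called higher and 0.643% lower, or 1.13% and 0.42% without replicate 4. ttr-27 was at 1.56, 1.74, 1.84 and 2.11 under vehicle and at 4.19, 3.42, 5.15 and 4.53 under NR. The change was 2.51 (adjusted p = 0.0028), or 2.44 without replicate 4 (adjusted p = 0.012), and the groups did not overlap. ttr-21 rose by 1.61 (adjusted p = 0.005) and ttr-17 by 1.51 (adjusted p = 0.015). The changes over the family ran from -1.15 to 2.51, with a median of 0.09, and 14 members were higher and 2 lower on each NR array than on every vehicle array. Of all genes 6.11% were higher and 3.8% lower in this way. The 108 antimicrobial peptide and induced defence genes gave 5 higher and 1 lower, or 4 and none without replicate 4, with abf-5, of an antibacterial factor, at 1.29 (adjusted p = 0.0075). The 241 C-type lectins gave 1 higher and 5 lower, or 4 and 5. Both lists stand beside the same shares of all genes called, 1.54% higher and 0.643% lower, or 1.13% and 0.42%.

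Genes of mitochondrial translation, respiration and the mitochondrial unfolded protein response gave few calls, all of them higher. Of 69 mitochondrial ribosomal protein genes 2 rose, with or without replicate 4, where 1.54% and 1.13% of all genes were called higher. Of the 69, 94.2% had higher values under NR, where 51.8% of all genes did, and their median was 0.28. Their median length was 1127 bases. Among all genes above the array mean the median change was 0.26 up to 1101 bases and 0.15 from 1102 to 1674 bases. On each NR array 15 of the 69 were higher than on every vehicle array and none was lower, where 6.11% of all genes were higher. The small-subunit gene mrps-33 was at 5.05, 5.28, 4.93 and 4.41 under vehicle and at 6.10, 5.92, 6.72 and 6.43 under NR. These groups did not overlap, and the change was 1.37 (adjusted p = 0.00043), or 1.33 without replicate 4 (adjusted p = 0.0024). The other called member was mrps-18B (adjusted p = 0.013, and a change of 0.97 without replicate 4, adjusted p = 0.041). Of 78 respiratory chain and ATP synthase genes only cox-17, of the copper chaperone of cytochrome c oxidase, rose (1.09, adjusted p = 0.012, or 1.04 without replicate 4, adjusted p = 0.041). Of 16 genes of the mitochondrial unfolded protein response 2 rose, clpp-1, of the matrix protease (0.88, adjusted p = 0.0093), and ubl-5, of a ubiquitin-like cofactor (1.19, adjusted p = 0.039). The call of ubl-5 was lost without replicate 4 (1.11, adjusted p = 0.12). None of 41 genes of mitochondrial dynamics, mitophagy and autophagy was called, where 2.18% of all genes were, or 1.55% without replicate 4. The p62 gene sqst-1, of an autophagy receptor, had a change of -0.78 (adjusted p = 0.019) that was too small to be called.

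A few small heat shock genes rose. Where 1.54% of all genes were called higher, 3 of 29 heat shock and chaperone genes rose and none fell. Without replicate 4, 3 rose and 1, hsp-43, fell by 0.81, where 1.13% and 0.42% of all genes were called higher and lower. The called genes were hsp-12.3 (1.51, adjusted p = 0.00056), hsp-17 (1.18, adjusted p = 0.0061) and hsp-12.2 (0.89, adjusted p = 0.012), all of small heat shock proteins, which bind unfolding proteins. All 11 genes of the hsp-12, hsp-16 and hsp-17 families had higher values under NR (median 0.44), where 51.8% of all genes did. hsp-12.3 was at 1.91, 1.76, 0.86 and 0.68 under vehicle and at 2.83, 2.97, 3.23 and 2.24 under NR, with no overlap.

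The genes that make or use NAD did not pass the test. None of 37 such genes was called with or without replicate 4, and their changes lay between -0.53 and 0.63 (lowest adjusted p 0.082). Over all genes 2.18% were called, or 1.55% without replicate 4. The lack of calls in this list and in those below is near that share and is no result about these genes. The gene of NR kinase, nmrk-1, was at 2.83, 2.48, 2.84 and 2.64 under vehicle and at 3.34, 2.94, 2.42 and 3.19 under NR. The groups overlapped, and the change was 0.27 (SE 0.18, adjusted p = 0.42). The change was 0.63 for nmat-2 (adjusted p = 0.082) and 0.09 for nmat-1, genes of the enzymes that turn NMN into NAD, 0.24 for the nicotinamidase gene pnc-1, 0.00 for the NAD synthase gene qns-1, -0.08 for the sirtuin gene sir-2.1 and -0.36 for the poly(ADP-ribose) polymerase gene parp-1. The 15 genes of AMP-activated kinase and its partners also gave no call. The catalytic subunit gene aak-2 was at 2.21, 1.19, 2.01 and 2.51 under vehicle and at 1.14, 1.69, 1.45 and 0.99 under NR (change -0.66, SE 0.37, adjusted p = 0.33). None of 17 nucleotide excision repair genes and none of 75 cytosolic ribosomal protein genes was called, and the ribosomal protein median was -0.29, or -0.12 without replicate 4.

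Major sperm protein genes had higher values in all 27 members (median 0.83), where 51.8% of all genes had. Only 2, msp-38 and msp-36, were called, and none without replicate 4, where 1.54% and 1.13% of all genes were called higher. msp-38 was at 1.96, 1.57, 3.18 and 2.85 under vehicle and at 3.10, 3.30, 3.61 and 3.66 under NR, so vehicle replicates 3 and 4 lay near the NR arrays. Its change was 1.03 (adjusted p = 0.047), or 0.95 without replicate 4 (adjusted p = 0.14). The 8 sperm markers had a mean level of -0.09 to 1.30 under vehicle and 0.76 to 1.42 under NR.

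**Figure D5:**
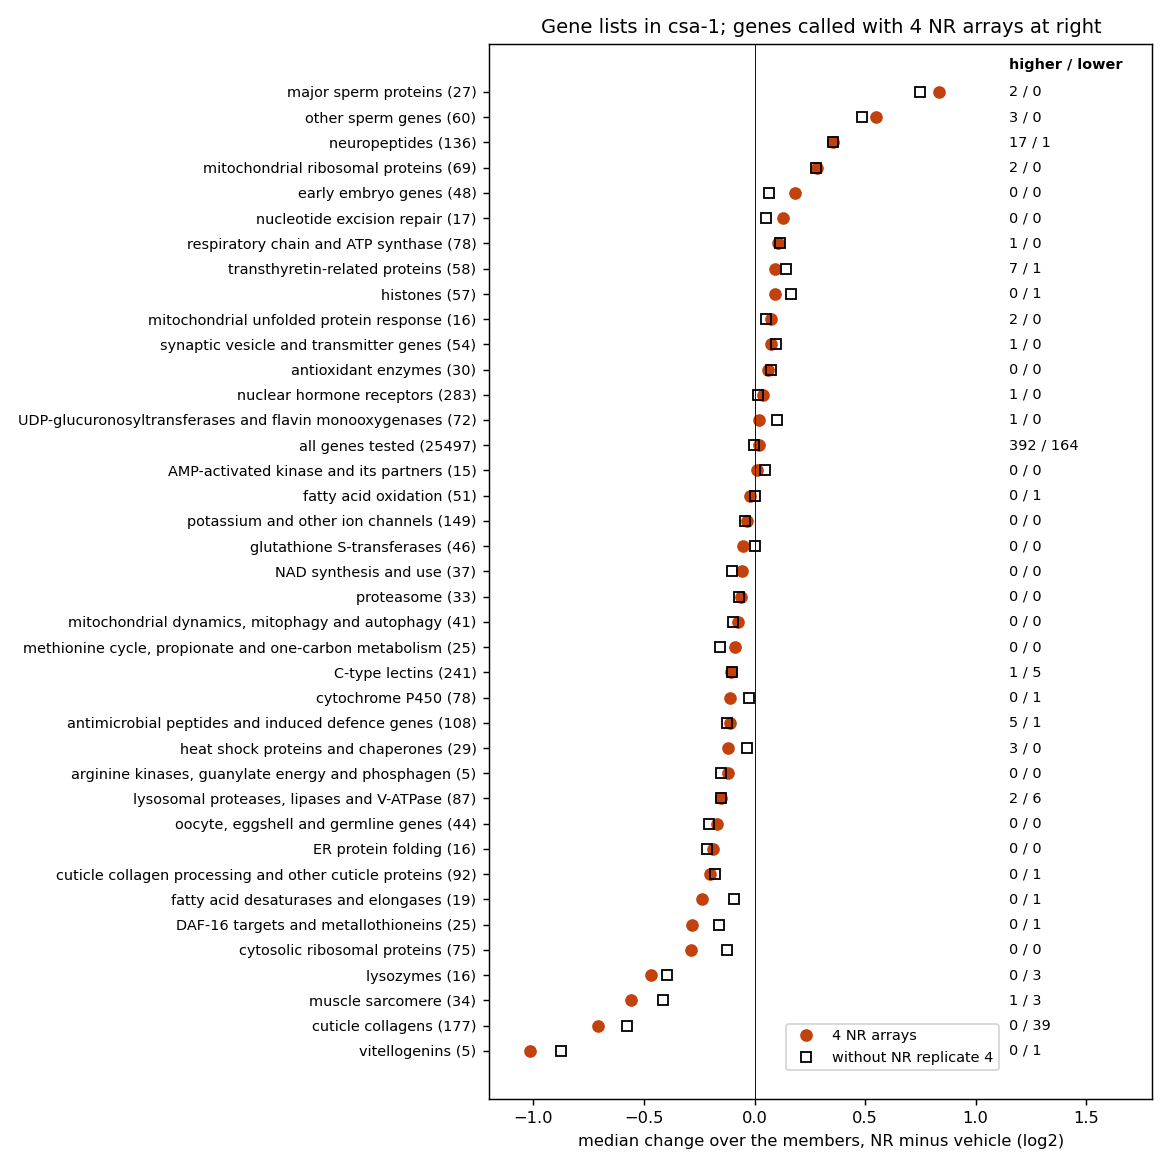
Median change under NR in csa-1 (log2, NR minus vehicle) of all genes tested and of 38 gene lists, with the number of members in brackets. Dots use 4 NR arrays and open squares leave out NR replicate 4, and the numbers at the right count the members called higher and lower with 4 NR arrays. The major sperm proteins (0.83) have the highest median, and the vitellogenins (-1.02) and cuticle collagens (-0.71) the lowest.

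The length of the annotated gene moved with the direction of change. The median length was 932 bases for the genes called higher, 1447.5 for those called lower and 2053 for the others. Among genes above the array mean, the median change was 0.26 in the shortest 20% of genes and -0.11 in the longest 20%, or 0.25 and -0.13 without replicate 4, and 10.3% of the shortest genes were called higher. The collagens among the shortest genes had a median of -1.19. In N2, csb-1 and the double mutant the order ran the other way, from -0.09, -0.19 and -0.24 in the shortest genes to 0.10, 0.12 and 0.21 in the longest. The mean level of the shortest genes minus that of the longest was 1.19, 1.64, 1.12 and 1.12 on the csa-1 vehicle arrays and 1.68, 1.60, 1.78 and 1.70 on the csa-1 NR arrays. It was 1.28 on N2 vehicle replicate 3 against 1.84 to 2.23 on the other N2 vehicle arrays. Low values were not particular to these arrays, with 1.17 to 1.31 in the double mutant NR, 1.25 on csb-1 NR replicate 4 and 1.33 on double mutant vehicle replicate 3. The remaining arrays stood at 1.47 to 2.03. The part of gene length in the calls was not tested.

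The NR effect in csa-1 was set against that in N2 by an interaction contrast. At an adjusted p of at most 0.05, 10 genes (0.0392%) differed with all arrays, 6 with a more positive change in csa-1 and 4 with a more negative one, and 13 (0.051%) differed without NR replicate 4. At an unadjusted p under 0.05 these were 2271 and 1856 genes. Without N2 vehicle replicate 3 the count rose to 336 (1.32%), 278 more positive and 58 more negative, and to 308 (1.21%) without NR replicate 4 as well. Of the 392 genes called higher in csa-1, 145 were among the 336, and of the 164 called lower, 5 were. The count thus depended on 1 library, the vehicle array labelled N2 whose values were nearest to csa-1 vehicle. This library was left out for that nearness, so the counts without it are a description.

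The difference was 2.78 for C01G10.4 (adjusted p = 0.039), and 3.49 without N2 vehicle replicate 3 (adjusted p = 1.73e-09). In N2 its change under NR was -0.02, and -0.73 without that array. N2 vehicle replicate 3 was set aside because its values lay near csa-1 vehicle, as they did at C01G10.4, ttr-27 and ceh-62. The values without it, here and below, are thus a description and not a separate test. C01G10.17 (adjusted p = 0.069), ins-28 (adjusted p = 0.34), ceh-62 (adjusted p = 0.38), sshk-1 (adjusted p = 0.39) and ttr-27 (adjusted p = 0.44) did not pass with all arrays and passed without N2 vehicle replicate 3, with differences of 3.33, 2.40, 2.77, 2.76 and 2.73. The largest negative difference was at clx-1, a gene of a collagen-like sequence, with -6.33 (adjusted p = 0.010), from 3.96 in N2 and -2.37 in csa-1 (adjusted p = 0.052, not called). Its csa-1 vehicle arrays stood at 4.43, 4.28, 1.72 and 1.53 and the NR arrays at 0.84, 1.55, 1.39 and -1.30, so the split between vehicle replicates 1 and 2 and replicates 3 and 4 seen at ilys-3 recurred here. At other genes the change was larger in N2 than in csa-1. The change of pugs-8 was -1.59 in N2 (called) and 0.53 in csa-1 (not called, difference 2.13, adjusted p = 0.0077), and that of the small heat shock gene hsp-16.21 2.71 (called) and 0.44 (not called, difference -2.27, adjusted p = 0.015).

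The NR effect in csa-1 differed from that in csb-1 at 73 genes (0.286%), or 144 without NR replicate 4. The count was 1 with the replicate number as a block, 4 without csa-1 vehicle replicate 4, 934 with 75th percentile scaling and 3650 with array weights. The effect differed from that in the double mutant at 836 genes (3.28%), 678 of them more positive in csa-1, or 676 without replicate 4. C01G10.4 differed from the double mutant by 3.29 (adjusted p = 0.00093), ttr-27 by 3.76 (adjusted p = 0.003) and mrps-33 by 2.18 (adjusted p = 0.00037). mrps-33 changed by -0.81 under NR in the double mutant and by 1.37 in csa-1.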

How the data were processed

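Whole day 7 adults were profiled from 8 groups of 4 samples (32 arrays), where the methods speak of 3 biological replicates. The authors hybridised 200 ng RNA to single-colour Agilent C. elegans arrays and scanned them with Feature Extraction 11.5.1.1 (header build WS190). The deposited intensity (gProcessedSignal) is background-subtracted by the scanner software and not normalized between arrays. The authors' deposited value table holds a Z score per probe, equal to the Z-score of the log2 intensity within 0.00503 and not used further.

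Control spots (1417 of 45220) and 289 probes with outlier spots were left out, and no spot was saturated. Z-scores of log2 intensity within each array were multiplied by 3.74, the mean SD of the arrays (3.17 to 4.00), which gives log2 levels relative to the array mean. Each gene took its brightest probe, and probe names were matched to RefSeq gene names (assembly WBcel235), 19792 of 25497 genes. limma 3.58.1 in R 4.3.3 fitted all 8 groups with no covariate and Benjamini-Hochberg adjustment over all genes. Figures used Python 3.11.15 and matplotlib 3.10.9. As in the methods, a call required a mean level above 0, a Z-ratio (change over the SD of all changes) of 1.5 or more and an adjusted p no higher than 0.05, and differences between strains the adjusted p alone. The number of arrays limits the precision.

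Named genes were the 10 called genes with the largest changes each way, with and without NR replicate 4, whose groups do not overlap, up to 3 called members each way of each of 38 lists (otherwise the 2 with the smallest p), all members of the NAD and kinase lists, and the genes with the 5 smallest adjusted p each way for the difference from N2. Genes outside this rule (Y68A4A.13, F22B8.2, scl-24, scl-25, H02F09.3, R07C12.1 and scrm-4, of the label check, and dpy-10) were chosen after their values were seen. The members and lists were chosen with earlier results of these data known. Probe sequences were not used here.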

Additional observations from a re-analysis of the deposited data

Results flagged for a closer look

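In 54 sets of 4 csa-1 arrays tested for a sample far from the others, 5 passed the 95% limit of Dixon's test, which chance passes in about 5% of sets, and all 5 lay on the library labelled csa-1 NR replicate 4. These were clec-13 at -3.42 (gap 0.901 of the range), F14D7.14 at 3.96 (0.973), ilys-3 at -1.02 (0.960), the csb-1 probe A_12_P159795 at -4.56 (0.955) and the csa-1 probe A_12_P118898 at 0.79 (0.869). The level of the csb-1 probe is the value by which this library was singled out, so it is given as a description. F14D7.14 stood at 4.21 to 4.22 on the other 3 NR arrays, so the step there was small.

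The NR effect in csa-1 differed from that in N2, by limma's interaction contrast, at 11 named genes beside C01G10.4 in one or the other set of arrays. More positive in csa-1 were F19F10.3 (1.94, adjusted p = 0.0077), pugs-8 (2.13, adjusted p = 0.0077), spig-6 (1.96, adjusted p = 0.014), F56D6.8 (1.92, adjusted p = 0.014) and nlp-24 (1.24, adjusted p = 0.020), a neuropeptide-like gene outside the list of 136 above. Without NR replicate 4 these were joined by F18E3.13 (1.61, adjusted p = 0.014) and F18E3.12 (2.12, adjusted p = 0.014). More negative in csa-1 were clx-1 (-6.33, adjusted p = 0.010), hsp-16.21 (-2.27, adjusted p = 0.015), alh-2 (-2.65, adjusted p = 0.022) and clec-17 (-1.32, adjusted p = 0.039). F19F10.3 rose by 1.07 in csa-1 (adjusted p = 0.003) and fell by 0.87 in N2 (adjusted p = 0.027), whereas the change of alh-2 was -0.47 in csa-1 (adjusted p = 0.47) and 2.18 in N2 (adjusted p = 0.00049). Each of these genes also differed at an adjusted p of at most 0.05 without N2 vehicle replicate 3. That array was left out for its nearness to csa-1 vehicle, so this is no independent support.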

How the results depend on the processing

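Of the 170 named genes none that was called changed direction under any alternative. Normexp background correction ended 52 calls and a fit of the csa-1 arrays alone 60, and each other setting ended 0 to 24, where the filter on dim probes left out 3 of the genes. Of 25497 genes 11747 were well above background on all 32 arrays. The 392 genes called higher and 164 lower became 129 and 45 with normexp, 55 and 5 with the csa-1 arrays alone, and 958 and 399 by the adjusted p alone, and the lower calls became 107 with the replicate block. Without NR replicate 4 (289 and 107) they became 109 and 25 with normexp, 8 and 2 with the csa-1 arrays alone and 36 and 21 with the block, and the lower calls 178 with quantile normalization and 195 with array weights. Leaving out 1 csa-1 array at a time gave 256 (without vehicle replicate 4) to 394 higher and 87 (without vehicle replicate 4) to 198 lower. Without NR replicate 4 these ranges were 139 (without NR replicate 2) to 265 and 27 (without NR replicate 1) to 132. N2 arrays enter through the shared spread alone. Without N2 vehicle replicate 3 the counts were 486 higher and 188 lower, or 427 and 136 without NR replicate 4 as well.

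The difference from N2 (10 genes) became 42 with quantile normalization, 3 with normexp, 29 with the filter on dim probes, 0 in a limma fit of the csa-1 and N2 arrays alone (1255 at an unadjusted p under 0.05), 2 with the block, 17 with array weights and 4 (without N2 vehicle replicate 2) to 336 (without N2 vehicle replicate 3) with an array left out. Without NR replicate 4 (13 genes) it became 20 with 75th percentile scaling, 37 with quantile normalization, 3 with normexp, 0 with the csa-1 and N2 arrays alone and 0 with the block (1067 and 1429 at an unadjusted p under 0.05), 37 with array weights and 3 to 308 with an array left out. The difference from csb-1 (73) became 934 with 75th percentile scaling, 856 with quantile normalization, 13 with normexp, 356 with the filter, 1 with the block, 3650 with array weights and 4 (without vehicle replicate 4) to 177, and that from the double mutant (836) 1469, 1686 and 115 with these scalings, 412 with the block, 3446 with array weights and 453 to 922. The cause of these shifts was not tested. Leaving out 1 array moved the change of A_12_P118898 between -0.031 (without NR replicate 4) and 0.78 and that of A_12_P159795 between -1.39 and 0.13.

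The collagens called lower (39) became 11 with normexp and 0 with the csa-1 arrays alone, and the neuropeptides called higher (17) became 2, 1 and, without vehicle replicate 4, 7. Scaling by the 75th percentile moved the median change of all genes from 0.02 to -0.12. Same-numbered vehicle and NR arrays did not deviate together (correlations -0.15, -0.43, 0.04 and -0.15, none best with its own number). The labels do not say whether arrays of one number were raised together, and these 4 correlations cannot settle it.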

Other observations

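Members of several families of small nematode-specific peptide genes rose in csa-1 under NR. The families were chosen after their values were seen, so the counts are a description. Of 17 nspc- genes (nematode-specific peptide family, group C) 9 were called higher and 2 without NR replicate 4, and all 17 were higher on each NR array than on every vehicle array, where 6.11% of all genes were (median change 1.13). Of 4 nspa- genes 3 were called higher, or 2 without replicate 4, and of 78 nssp- genes 14 were called higher and 1 lower, or 13 and 1. Over all genes 1.54% were called higher and 0.643% lower, or 1.13% and 0.42% without replicate 4.

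Outside the lists with several calls, unc-38, of a nicotinic acetylcholine receptor subunit, rose by 0.99 (adjusted p = 0.00036), or by 0.82 without replicate 4 (adjusted p = 0.0019), and was the only called member of 54 synaptic vesicle and transmitter genes. The nuclear hormone receptor gene nhr-17 rose by 1.28 (adjusted p = 0.00086), or by 1.47 (adjusted p = 0.00063), alone among 283 receptors. The linker histone gene his-24 fell by 0.85 (adjusted p = 0.012), or by 0.97 (adjusted p = 0.011), alone among 57 histones. The flavin monooxygenase gene fmo-2 stood at 0.48, 0.77 and 0.73 on NR replicates 1 to 3 and at 3.25 on replicate 4, with a change of 1.78 (adjusted p = 0.013) that was 1.13 without replicate 4 (adjusted p = 0.06). None of 149 ion channel, 46 glutathione S-transferase, 33 proteasome and 16 ER protein folding genes was called with or without replicate 4. Beside all these counts, 1.54% of all genes were called higher and 0.643% lower, or 1.13% and 0.42% without replicate 4. By limma's adjusted p alone, 4 glutathione S-transferase genes were higher and 1 lower, and 1 ion channel gene went each way. Over all 25497 genes these were 958 and 399.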
